A study of Mus musculus with 8 samples.

Results

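The kidney medulla concentrates urine against a gradient of salt and urea, and 9 genes that carry urea, gather or make small organic osmolytes, or take part in the response to high tonicity were followed across 8 libraries of whole mouse kidney RNA. The genes are Slc14a1, Slc14a2, Akr1b3, Slc5a3, Slc6a12, Slc6a6, Nfat5, Cryab and Slc4a11. They were chosen by name, for their known roles, as 9 of the 37583 gene identifiers listed for each library, and all 9 were among the 14433 genes that passed the filter on low counts. Per the labels, 4 libraries came from Six2Cre+TFAP2Afl/flTFAP2Bfl/WT mice and 4 from control littermates given as WT. The knockout genotype joins a Six2-driven Cre recombinase to loxP-flanked alleles of the transcription factor gene Tfap2a, both copies, and of Tfap2b, 1 copy. Six2 marks the progenitors of the nephron, so the collecting duct, the vessels and the interstitium lie outside the lineage in which this Cre acts. The labels give no age, sex, litter or batch, and do not state whether the littermates carried Cre or floxed alleles. Whether the libraries stem from different animals is not stated either, so p-values measure only the spread between these libraries. Libraries are named by group and replicate number (knockout 1 to 4, wildtype 1 to 4).

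Cells of the inner medulla live in fluid that is far more concentrated than blood. Urea crosses membranes through the carriers encoded by Slc14a1, found in descending vasa recta and red blood cells, and Slc14a2, found in the inner medullary collecting duct and the thin descending limb. To balance the salt outside, cells take up inositol, betaine and taurine through sodium-coupled carriers (Slc5a3, Slc6a12 and Slc6a6) and make sorbitol with aldose reductase (Akr1b3). NFAT5, also called TonEBP, is the transcription factor that raises several of these genes when tonicity rises, and it binds tonicity enhancers with the core TGGAAA. Cryab encodes alpha B-crystallin, a small chaperone that is plentiful in the inner medulla, and Slc4a11 encodes a membrane transporter of the SLC4 family whose loss gives mice polyuria.

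Start-site windows show where that core stands near the osmolyte carrier genes. The RefSeq promoter table (GRCm38.p6, 250 bases before to 50 after a start) had 7 windows for 3 of the 9 genes: 5 for Slc6a12, 1 for Slc5a3 and 1 for Nfat5. The core TGGAAA, searched on both strands, was in 1 of these 7 windows, that of a Slc6a12 start at chr6:121342324-121342623 on the plus strand, against 21.4% of all 32851 windows in the table (7040 windows). The match begins at base 176 of the window, 75 bases before the start, and is in capitals here. The single Slc5a3 window, at chr16:92058072-92058371 on the plus strand, has no match and is shown beside it as the other carrier with a window. A match is a string of letters in the window and nothing more, and its absence speaks only of this window.
Slc6a12: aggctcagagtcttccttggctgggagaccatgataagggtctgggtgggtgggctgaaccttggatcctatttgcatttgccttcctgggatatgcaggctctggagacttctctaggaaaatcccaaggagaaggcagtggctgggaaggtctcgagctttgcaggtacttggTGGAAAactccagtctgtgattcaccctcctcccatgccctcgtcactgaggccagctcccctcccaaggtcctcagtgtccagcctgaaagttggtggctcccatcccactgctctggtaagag
Slc5a3: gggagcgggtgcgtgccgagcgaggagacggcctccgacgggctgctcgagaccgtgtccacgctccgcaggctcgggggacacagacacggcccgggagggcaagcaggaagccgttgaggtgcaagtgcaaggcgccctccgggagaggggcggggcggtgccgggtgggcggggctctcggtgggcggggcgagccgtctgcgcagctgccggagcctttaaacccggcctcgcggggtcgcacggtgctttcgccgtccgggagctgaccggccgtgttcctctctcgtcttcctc

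Depth was even, with 13871861 to 16629301 reads per library counted to genes. The share of reads assigned to no feature was less even. It was highest in knockout 1 (16.2%, with 20547 genes detected) and lowest in knockout 3 (11.6%, with 19486 genes detected). The targeted genes did not set the groups apart: Tfap2a was at 5.65, 3.64, 5.12 and 5.81 CPM (counts scaled to library size by TMM) in the libraries labelled knockout and at 4.08, 4.70, 5.31 and 2.78 CPM in those labelled wildtype, and Tfap2b at 69.2, 103, 58.0 and 89.4 CPM against 100.4, 51.8, 74.6 and 86.3 CPM. Their log2 differences, knockout minus wildtype, were 0.26 (SE 0.24) and 0.03 (SE 0.22), so neither was lower where the label says knockout, and every direction given here is between labels. These levels cannot check the labels. The counts cover whole genes rather than the flanked parts, and include cells outside the Six2 lineage. For Tfap2b, only 1 copy is given as flanked. Kidney markers were high in every library, with Umod, the urinary glycoprotein of the thick ascending limb, at 4110 to 5006 CPM in knockout and 3562 to 4236 CPM in wildtype libraries. Libraries also stood apart from their groups. Knockout 2 and knockout 4 had high heat-shock transcripts (Hspa1b, whose level is uncertain beside its near copy Hspa1a, at 175 and 363 CPM, and at most 41.4 CPM in the other libraries), knockout 2 and wildtype 1 had adrenal transcripts (Star at 349.6 and 335 CPM, at most 6.15 CPM in the other libraries), and knockout 1 had the most globin (Hbb-bs at 4772 CPM).

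The first question was whether the urea and osmolyte genes differed between the labelled genotypes. None of the 9 passed edgeR's quasi-likelihood test at an adjusted p of 0.05, and over all 14433 genes the share called was 0%. Cryab and Slc6a12 had an unadjusted p under 0.05, both with the higher mean in knockout libraries, against 2.17% of all genes in that direction and 1.84% in the other. Cryab was the 1 gene of 9 whose groups did not overlap, with knockout the higher, as for 1.03% of all genes. The log2 difference was above 0 in 6 of 9 genes (51.3% of all genes), and its median was 0.23 (0.01 over all genes). By other tools, 0 of 9 passed under DESeq2 and limma-voom as well, with 3 and 1 members at an unadjusted p under 0.05. Over all genes, 715 of 24562 had such a p under DESeq2, with 4 genes called. Under limma-voom it was 586 of 14433, with 0 called. In whole-kidney RNA, fewer cells of a type and less RNA per cell cannot be told apart.

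**Figure D1:**
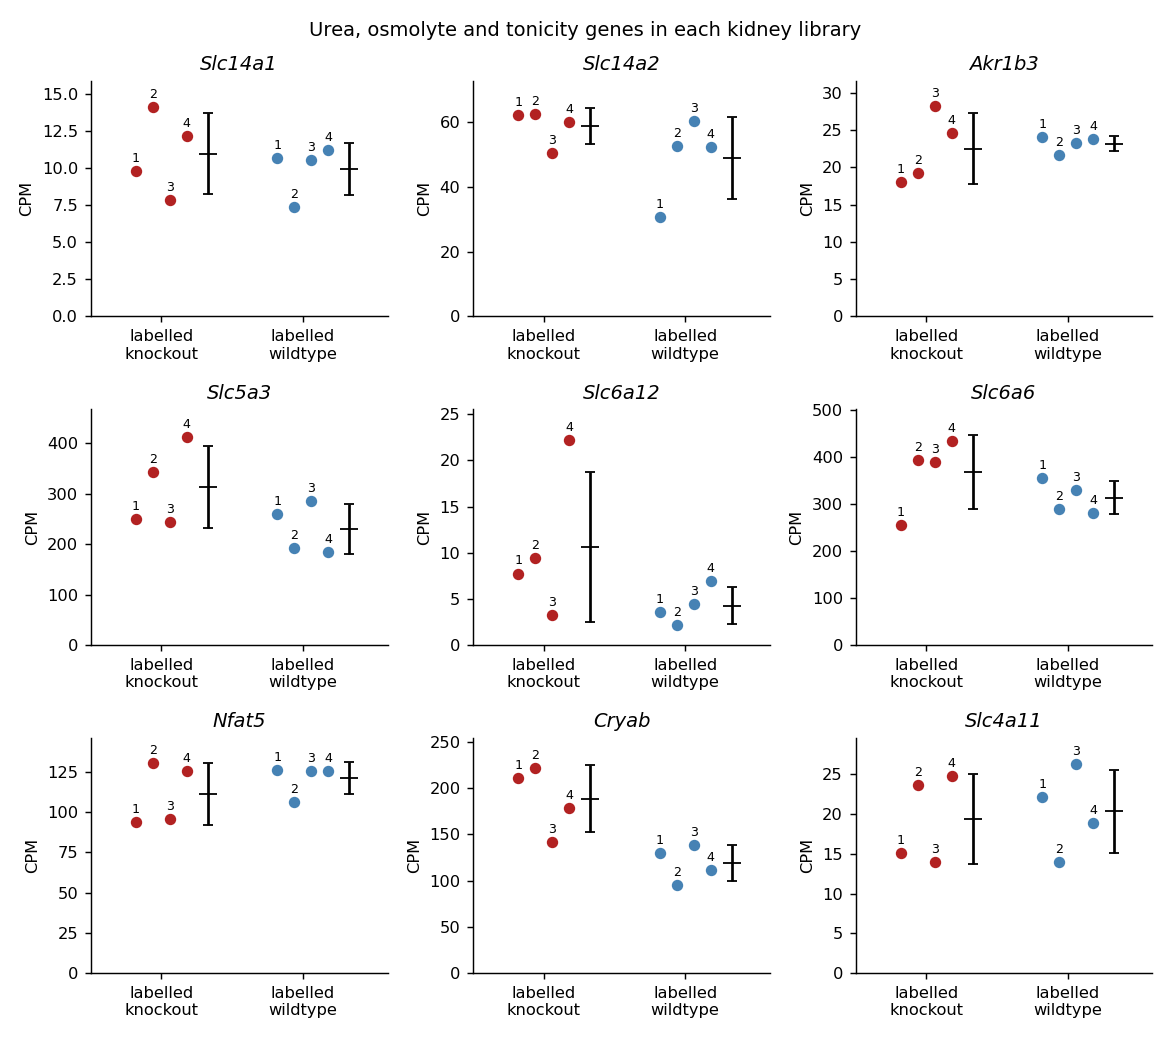
CPM of each gene (vertical axis, from 0) in the 4 libraries labelled knockout (red) and the 4 labelled wildtype (blue), numbered by replicate, with the mean and SD of each group in black. Cryab is the gene whose groups do not overlap, and Slc6a12 has 1 knockout library, number 4, far above the rest at 22.2 CPM.

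Of the urea transporters, Slc14a2 (ENSMUSG00000024552, chromosome 18, 78146148 to 78596942, minus strand; all positions are GENCODE M21 on GRCm38) was at 62.2, 62.3, 50.4 and 59.8 CPM in knockout libraries and at 30.8, 52.5, 60.4 and 52.2 CPM in wildtype libraries. The groups overlapped, and the lowest library by far was wildtype 1, one of the libraries with adrenal transcripts. Knockout 2, which also had adrenal transcripts, was the highest library at 62.3 CPM. Slc14a2 averaged 58.7 ± 5.65 CPM in knockout and 48.9 ± 12.7 CPM in wildtype libraries (SD, n = 4 each), so the log2 difference was 0.26 with an SE of 0.18, and its 95% interval of -0.14 to 0.66 held 0 (adjusted p = 0.957 in edgeR). Without wildtype 1 the log2 difference was 0.10. Its neighbour Slc14a1 (ENSMUSG00000059336, chromosome 18, 78100091 to 78142119, minus strand) lies on the same strand of the same chromosome. It was at 9.83, 14.1, 7.87 and 12.2 CPM in knockout libraries and at 10.7, 7.39, 10.6 and 11.2 CPM in wildtype libraries. These values overlapped throughout, with the lowest of each group at nearly the same level, and the difference of 0.14 (SE 0.20) was within the spread, at an adjusted p of 0.957 in edgeR with -0.30 to 0.59 as its 95% interval. Without knockout 2 and 4 it was -0.17. Slc14a1 is also a red-cell gene; knockout 1, with the most globin, had 9.83 CPM of Slc14a1, the third lowest of the 8 values.

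Of the osmolyte carriers, Slc6a12, the betaine carrier (ENSMUSG00000030109, chromosome 6, 121343076 to 121365775, plus strand), was the most variable of the 9 genes. It was at 7.74, 9.38, 3.19 and 22.2 CPM in knockout libraries and at 3.54, 2.13, 4.42 and 6.91 CPM in wildtype libraries. Knockout 4 stood 10.4-fold above wildtype 2, and knockout 3 lay inside the wildtype range. The means were 10.6 ± 8.14 CPM in knockout and 4.25 ± 2.01 CPM in wildtype libraries (SD, n = 4 each). They lay 1.32 apart on the log2 scale (SE 0.56; 0.05 to 2.59 at 95%), with an unadjusted p of 0.0429 and an adjusted p of 0.957 by edgeR. Knockout 4 and knockout 2, the highest libraries for Slc6a12, are the libraries with high heat-shock transcripts. Without both, the log2 difference was 0.37, and without knockout 4 alone it was 0.68.

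Slc5a3, the inositol carrier (ENSMUSG00000089774, chromosome 16, 92058322 to 92087473, plus strand), was at 251, 344, 243 and 413 CPM in knockout libraries and at 260.1, 192, 285 and 185 CPM in wildtype libraries. Knockout 2 and 4 were again the highest, and knockout 1 and 3 lay inside the wildtype range. edgeR put the log2 difference at 0.44 (SE 0.20) with a 95% interval of -0.0046 to 0.89 and an adjusted p of 0.957; it was 0.10 without knockout 2 and 4. Slc5a3 shares 159 exon bases, 1.46% of its exon length, with Mrps6 on the same strand. Slc6a6, the taurine carrier (ENSMUSG00000030096, chromosome 6, 91684053 to 91759066, plus strand), was at 254, 392, 388 and 434 CPM in knockout libraries and at 355, 289, 328 and 279.9 CPM in wildtype libraries. Its knockout group held both the lowest value of all, in knockout 1, and the 3 highest. Its log2 difference of 0.23 (SE 0.16; -0.13 to 0.59 at 95%) had an adjusted p of 0.957 in edgeR, and was 0.37 without knockout 1 and 0.04 without the 2 libraries with high heat-shock transcripts.

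Akr1b3, the aldose reductase that makes sorbitol (ENSMUSG00000001642, chromosome 6, 34302434 to 34317478, minus strand), was at 18.02, 19.2, 28.2 and 24.7 CPM in knockout libraries and at 24.1, 21.7, 23.3 and 23.8 CPM in wildtype libraries. The knockout libraries were spread on both sides of a narrow wildtype range, and the log2 difference was -0.04 (SE 0.15) with an adjusted p of 0.979 in edgeR and a 95% interval of -0.37 to 0.28. Its level is uncertain, because its transcript has 4 close copies in the annotation (99.1% to 99.7% identity), and reads that match several places were set aside by the authors' counting. The 2 copies listed in the count data had at most 3 counts in any library.

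Nfat5 itself (ENSMUSG00000003847, chromosome 8, 107293470 to 107379517, plus strand) was among the steadiest, with a 1.39-fold range over the 8 libraries. It was at 93.9, 130.1, 95.6 and 126 CPM in knockout libraries and at 126, 106, 125 and 125 CPM in wildtype libraries. The knockout libraries fell into a lower pair, 1 and 3, and a higher pair, 2 and 4, around a wildtype group with 1 low member. On the log2 scale the groups were -0.12 apart (SE 0.13; -0.40 to 0.17 at 95%), with an adjusted p of 0.957 in edgeR, and -0.35 without knockout 2 and 4. Leaving out 1 library at a time gave -0.20, without knockout 2, to -0.044, without knockout 1. Slc4a11 (ENSMUSG00000074796, chromosome 2, 130684113 to 130697519, minus strand) had 15.0, 23.6, 13.95 and 24.7 CPM in knockout libraries and 22.1, 13.96, 26.2 and 18.9 CPM in wildtype libraries. Its groups spanned the same range, and -0.07 was the log2 difference (SE 0.23; -0.59 to 0.45 at 95%; adjusted p = 0.981 in edgeR), and -0.48 without knockout 2 and 4.

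Cryab, the chaperone gene (ENSMUSG00000032060, chromosome 9, 50751325 to 50756636, plus strand), was at 211, 222, 142 and 179 CPM in knockout libraries and at 129.6, 94.9, 139 and 112 CPM in wildtype libraries. All 4 knockout values were above all 4 wildtype values, although the nearest pair, 141.7 CPM in knockout 3 and 139.0 CPM in wildtype 3, almost touched. The means were 188 ± 36.1 CPM in knockout and 119 ± 19.5 CPM in wildtype libraries (SD, n = 4 each). These lay 0.66 apart on the log2 scale (SE 0.16; 0.31 to 1.02 at 95%), with an unadjusted p of 0.00188 and an adjusted p of 0.957 by edgeR, 0.217 by DESeq2 and 0.949 by limma-voom. Over 16 other settings, leaving out each library included, the log2 difference of Cryab was 0.57 to 0.78. Counting did not use strand, and 252 of Cryab's exon bases (17.04%) are shared with Hspb2 on the opposite strand; Hspb2 itself had 1.54 to 4.27 CPM.

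Levels were set side by side per kb of annotated exon, with all exons of a gene merged. The scale is rough, as merged exons can be longer than the transcripts present. Cryab was the most abundant, with a mean of 104 CPM per kb over the 8 libraries (64.2 to 150.0). Slc6a6 followed at 40.2 CPM per kb (30.1 to 51.3) and Slc5a3 at 24.9 CPM per kb (16.96 to 37.9); the ranges of Cryab and Slc6a6 were separate, and those of Slc6a6 and Slc5a3 overlapped. Slc14a2 came next at 10.4 CPM per kb (5.95 to 12.1), below the whole range of Slc5a3. Nfat5 (6.31), Slc4a11 (3.96), Akr1b3 (2.73), Slc14a1 (2.62) and Slc6a12 (2.44) closed the order, and each overlapped the gene before it. The place of Akr1b3 is uncertain, as its counts are. Its merged exons come to 8384 bases, while its longest match to a close copy was 1352 bases. The carriers of inositol and taurine were thus about an order of magnitude above the betaine carrier, which ran from 0.697 to 7.27 CPM per kb.

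**Figure D2:**
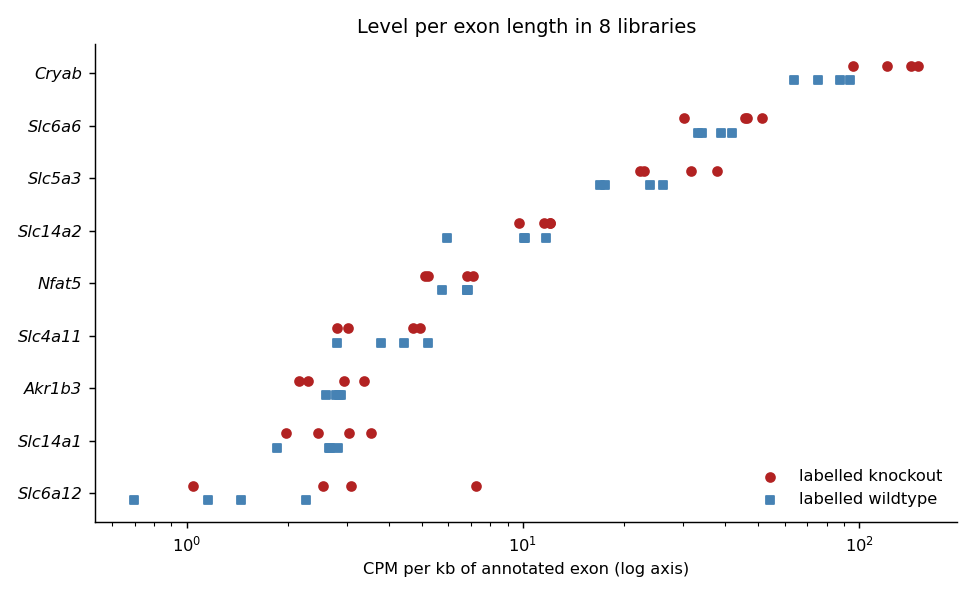
CPM per kb of annotated exon (log axis) for the 9 genes, ordered by mean, in libraries labelled knockout (red circles) and wildtype (blue squares). Cryab lies between 64.2 and 150.0 CPM per kb and Slc6a12 between 0.697 and 7.27 CPM per kb, the widest spread on this log axis.

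The second question was whether these genes followed the amount of medulla in each library. An index of medulla was the mean log2 CPM of 16 markers, 7 of the thin limb and 9 of the collecting duct, none of them among the 9 genes. It was 5.79, 5.66, 5.25 and 5.67 in knockout libraries and 5.58, 5.02, 5.38 and 5.31 in wildtype libraries. Wildtype 2 was the lowest and knockout 1 the highest, and the groups overlapped. The means differed by 0.27 log2 units (exact permutation test over 70 arrangements, two-sided, p = 0.171; the smallest possible p is 0.0286). The index is a level of marker RNA: Aqp1 is also made by the proximal tubule and Aqp2 by the cortical collecting duct. Set against the markers of cortex (proximal convoluted tubule and podocyte), the difference was 0.015 (exact permutation p = 0.971), and the medulla-minus-cortex values were -0.80, -0.78, -1.36 and -1.25 in knockout against -0.46, -1.40, -0.90 and -1.49 in wildtype libraries. Within the cortex markers, the mean log2 CPM of the 8 podocyte genes differed by 0.40 (wildtype SD 0.50). That of the 10 convoluted tubule genes differed by 0.13, so this measure leans on the podocyte level. Wildtype 1 was the lowest library in both cortex lists. A larger medulla share in knockout libraries was therefore not detectable by either measure.

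Across the 8 libraries, 8 of the 9 genes had a positive correlation of log2 CPM with the index (51.2% of 14417 genes), and the median r was 0.45 (0.02 over those genes). After adjustment over all genes, 0 of 9 passed, as did 0% of all genes, the smallest adjusted p of any gene being 0.0616. Cryab and Slc6a12 had an unadjusted p under 0.05, against 8.62% of all genes with a positive r. All p-values here are exact, from every pairing of the libraries. The index also ran with a difference in library make-up. Knockout 1, knockout 2, knockout 4 and wildtype 1 had the highest index. They also had the highest shares of reads assigned to no feature (16.2%, 14.5%, 13.7% and 14.4%) and the most genes detected. The same libraries had the highest summed levels of fat genes (773, 831, 656 and 845 CPM, at most 459 CPM in the others). Erythroid genes were highest there as well (7816, 1238, 677 and 1376 CPM, at most 291 CPM in the others). Whether correlations with the index follow the amount of medulla, the library difference or the content of these other tissues was not tested.

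Cryab followed the index most closely, with r = 0.87 (exact p = 0.0057, adjusted p = 0.127) and rho = 0.76 (exact p = 0.0368, adjusted p = 0.297); 1.53% of genes had an r at least as high. Without knockout 1 and wildtype 2, the libraries farthest from the median index, r was 0.71, and for deviations from the group means it was 0.87. Against the medulla-minus-cortex index r was 0.47. For Slc6a12, r was 0.72 (exact p = 0.0426, adjusted p = 0.251) and rho 0.83 (exact p = 0.0154, adjusted p = 0.223). It was 0.63 without the 2 farthest libraries, 0.59 for deviations, and 0.03 against the medulla-minus-cortex index, so the relation depended on which marker level was used.

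Slc14a1 had r = 0.71 (exact p = 0.0542, adjusted p = 0.277; rho = 0.55, exact p = 0.171) and Slc5a3 r = 0.68 (exact p = 0.0675, adjusted p = 0.301; rho = 0.67, exact p = 0.0831). Without the 2 farthest libraries these were 0.78 and 0.79. Slc14a2, the gene most bound to the inner medulla by its known place, had r = 0.12 (exact p = 0.821, adjusted p = 0.922) with rho = 0.55 (exact p = 0.171). In wildtype 1 Slc14a2 was 30.8 CPM at an index of 5.58, and without that library r was 0.84 (exact p = 0.0361, adjusted p = 0.273). It was -0.03 without knockout 1 and -0.36 against the medulla-minus-cortex index, so neither its size nor its sign was stable. Slc4a11 had r = 0.45 (exact p = 0.249), Slc6a6 0.19 (exact p = 0.648) and Nfat5 0.17 (exact p = 0.685); without the 2 farthest libraries these were 0.69, 0.59 and 0.65. Knockout 1, with the highest index, was the lowest library for Slc6a6 and Nfat5. Akr1b3 was the 1 gene with a negative r, -0.46 (exact p = 0.247, adjusted p = 0.530), and -0.60 without the 2 farthest libraries. Leaving out knockout 1 alone gave -0.20, and leaving out wildtype 2 alone gave -0.75.

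**Figure D3:**
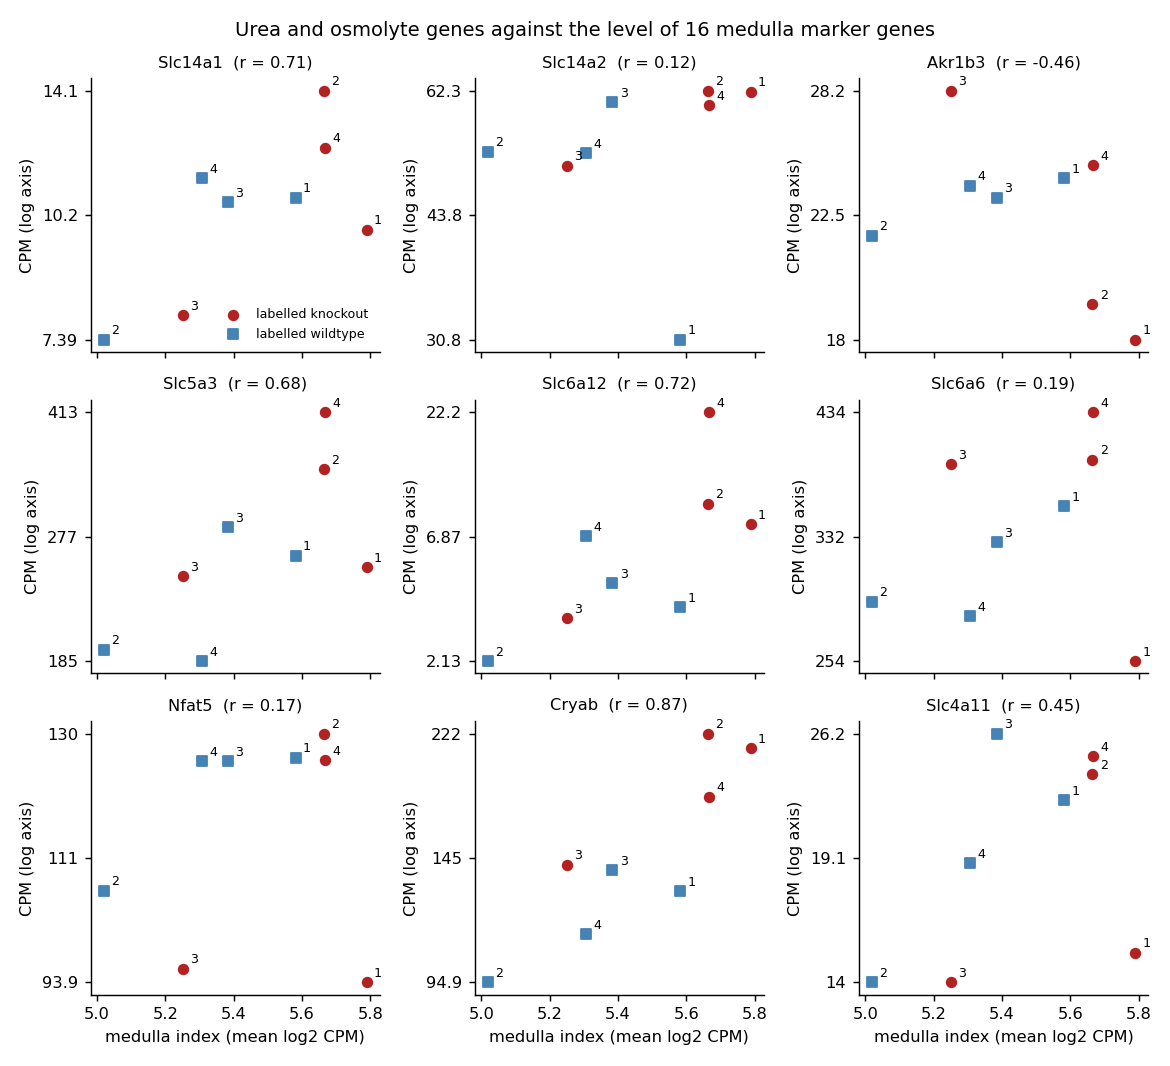
CPM of each gene (vertical axis, log scale) against the medulla index (mean log2 CPM of 16 marker genes) in libraries labelled knockout (red circles) and wildtype (blue squares), numbered by replicate, with Pearson's r above each panel. Cryab lies closest to a rising line (r = 0.87), and in the Slc14a2 panel wildtype 1 lies alone at 30.8 CPM.

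With the index as a term beside genotype, 0 of the 9 genes passed edgeR's test, as did 0% of all genes; every member's adjusted p was 1.00. Cryab was the 1 member with an unadjusted p under 0.05 (2.16% of all genes, either direction). Its log2 difference was 0.39 (SE 0.12, 95% interval 0.11 to 0.66, unadjusted p = 0.0114), against 0.66 without the term. For Slc6a12 the difference was 0.55 (SE 0.68, 95% interval -1.03 to 2.12), for Slc5a3 0.23 (SE 0.21) and for Slc14a1 -0.13 (SE 0.20), all closer to 0 or past it. That shift depended on the index: with the medulla-minus-cortex index as the term, the differences were 0.65 for Cryab, 1.33 for Slc6a12, 0.46 for Slc5a3 and 0.13 for Slc14a1, close to those of genotype alone. With the collecting duct markers alone as the index, Slc6a12 was at 1.07, and with the thin limb markers alone at 0.25. With the index of all 16 markers, Slc14a2 (0.32, SE 0.24) and Slc6a6 (0.23, SE 0.19) hardly moved. Slc4a11 (-0.37, SE 0.24) and Nfat5 (-0.23, SE 0.14) lay lower, and Akr1b3 was at 0.06 (SE 0.16). The median over the 9 genes was 0.23 in both fits.

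**Figure D4:**
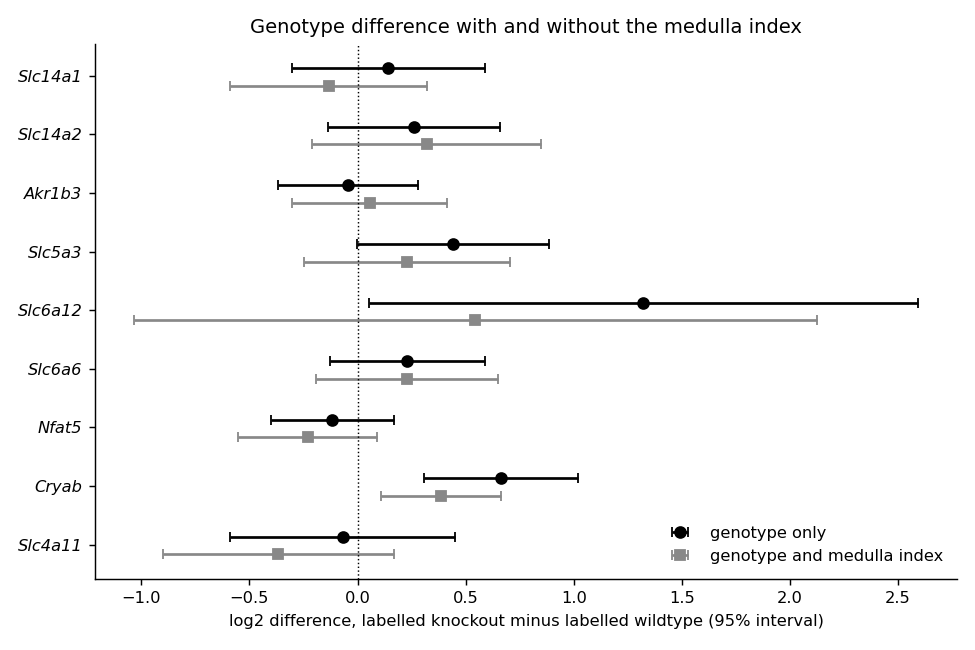
log2 difference, labelled knockout minus labelled wildtype (horizontal axis), with 95% intervals from edgeR, for genotype alone (black circles) and with the medulla index as a second term (grey squares). The intervals of Cryab lie above 0 in both fits, 0.31 to 1.02 and 0.11 to 0.66, and the interval of Slc6a12 is the widest.

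The osmolyte carriers were also set against heat-shock transcripts, and 0 of the 9 genes passed after adjustment over all genes. The mean log2 CPM of 9 heat-shock genes was 5.84, 7.00, 5.90 and 7.42 in knockout libraries and 6.12, 5.79, 5.78 and 5.65 in wildtype libraries, so knockout 2 and 4 stood above all others. Against it, Slc5a3 had r = 0.88 (exact p = 0.00203, adjusted p = 0.361; rho = 0.74, exact p = 0.0458), Slc6a6 r = 0.77 (exact p = 0.0169, adjusted p = 0.392; rho = 0.81, exact p = 0.0218) and Slc6a12 r = 0.76 (exact p = 0.0243, adjusted p = 0.414; rho = 0.45, exact p = 0.267). Among all genes, 5.04% had a positive and 5.62% a negative r with an unadjusted p under 0.05, and 0% passed the adjustment. Without knockout 2 and 4 these correlations were 0.54, 0.55 and -0.33, so that of Slc6a12 rested on those libraries. Cryab, a small heat-shock protein gene, had r = 0.59 (exact p = 0.125, adjusted p = 0.571), and 0.21 without them. The heat-shock mean and the medulla index themselves had r = 0.54 (exact p = 0.179; rho = 0.52, exact p = 0.197), and r was 0.86 without knockout 1 and wildtype 2. The part of heat-shock transcripts in these levels was not tested.

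Among themselves the 9 genes form 36 pairs, 28 with a positive and 8 with a negative correlation over the 8 libraries (median r 0.38, from -0.49 to 0.88). None passed after adjustment over all genes for each member (lowest adjusted p = 0.483), and 7 pairs had an unadjusted exact p under 0.05. The shares of all gene pairs with such values were not counted, so these counts cannot be read as a result about the 9 genes. The closest pair was Nfat5 and Slc4a11, with r = 0.88 (exact p = 0.0126, adjusted p = 0.586; rho = 0.71, exact p = 0.0576), and 0.87 without the 2 libraries farthest in Nfat5. The urea transporter Slc14a1 went with Slc4a11 (r = 0.81, exact p = 0.0115, adjusted p = 0.483), and with 0.51 once knockout 3 and wildtype 2 were left out. Slc5a3 and Slc6a6, the more abundant carriers, had r = 0.75 (exact p = 0.0319, adjusted p = 0.708), and 0.53 without knockout 4 and wildtype 4. The lowest value was between Akr1b3 and Cryab (-0.49).

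The genes most like each member in pattern, by Pearson's r of log2 CPM over the 8 libraries, were other than these 9. For Cryab they were Rusc1 (0.98), Chek1 (0.97) and Osbp (0.96), and for Slc6a12 Twsg1 (0.99), Fam20a (0.96) and Plat (0.96). For Slc5a3 they were Atf4 (0.98), a transcription factor of the integrated stress response, Tfdp2 (0.97) and Gm15344 (0.95). Slc14a1 was nearest to Pik3r3 (0.98), Gys1 (0.97) and Gm12264 (0.96), and Slc14a2 to Ifitm10 (0.96), Rce1 (0.95) and Dennd2a (0.93). Nfat5 was nearest to Mical3 (0.99), Apc (0.96) and Zfc3h1 (0.95), and Slc4a11 to Nav1 (0.98), Tmem238l (0.97) and Pogz (0.94). Slc6a6 was nearest to Zfp623 (0.97), Mxd1 (0.96) and Gm14137 (0.96), and Akr1b3 to Palb2 (0.96), Drg2 (0.95) and Ces1g (0.94). With 14433 genes and 8 libraries, values this high are the top of a long list and were chosen for being so.

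The wider pathways were read from 3 lists. Of 17 genes of osmolyte synthesis and breakdown, 0 passed edgeR's adjusted test, 1 had an unadjusted p under 0.05 (4.00% of all genes), and 12 had a positive difference (51.3% of all genes; median 0.08). That 1 gene was Isyna1, inositol-3-phosphate synthase, which makes inositol within the cell as Slc5a3 brings it in. It was at 66.4, 86.3, 53.7 and 75.2 CPM in knockout libraries and at 54.0, 47.2, 49.0 and 47.2 CPM in wildtype libraries, with knockout 3 just under the highest wildtype value (log2 difference 0.51, SE 0.14, edgeR adjusted p = 0.957). Impa2, an inositol monophosphatase, averaged 13.1 ± 2.79 CPM in knockout and 10.2 ± 0.37 CPM in wildtype libraries (SD, n = 4 each). Miox, which breaks inositol down in the proximal tubule, had 1933 ± 246 CPM in knockout and 1772 ± 262 CPM in wildtype libraries, and Sord, which turns sorbitol into fructose, 1024 ± 54.8 and 967 ± 60.5 CPM, differences within the spread.

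Of 14 tonicity-response genes, 0 passed, 1 had an unadjusted p under 0.05 (4.00% of all genes) and 9 had a positive difference (51.3% of all genes; median 0.16). That gene was Hspb1, a small heat-shock protein gene like Cryab, at 4.06, 15.3, 3.19 and 15.7 CPM in knockout libraries and 5.99, 2.32, 2.84 and 2.07 CPM in wildtype libraries. Its high values were in knockout 2 and 4 alone, whereas Cryab was also high in knockout 1. Wnk1, a kinase that senses chloride and osmotic stress, was at 436 ± 28.3 CPM in knockout and 503 ± 42.5 CPM in wildtype libraries, and Sik1, a salt-inducible kinase, at 134 ± 24.5 and 176 ± 63.9 CPM (log2 differences -0.21, SE 0.10, and -0.39, SE 0.25).

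Of 14 urea and vasopressin genes, 10 were tested; 0 passed, 2 had an unadjusted p under 0.05 (4.00% of all genes) and 9 of 10 had a positive difference (51.3% of all genes; median 0.14). Ptger3, a prostaglandin E2 receptor that opposes vasopressin, was at 85.8, 94.0, 65.9 and 107 CPM in knockout libraries and 73.2, 64.0, 60.2 and 70.9 CPM in wildtype libraries (log2 difference 0.39, SE 0.14). Pde4d, a phosphodiesterase that breaks down cyclic AMP, averaged 21.1 ± 2.93 CPM in knockout and 16.96 ± 2.05 CPM in wildtype libraries (log2 difference 0.32). Adcy6, an adenylyl cyclase downstream of the vasopressin receptor, differed by 0.15 (SE 0.15) and Rhcg, an ammonia channel, by 0.13 (SE 0.22). Avpr2, the vasopressin receptor itself, was among the genes too low to test, with 24 counts over all libraries.

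The markers behind the index were also read singly. Of 7 thin limb genes 6 had a positive difference (median 0.31), and of 9 tested collecting duct genes 8 did (median 0.22); 0 of these 16 passed edgeR's adjusted test and 2, both collecting duct genes, had an unadjusted p under 0.05 (4.00% of all genes). Aqp2, the vasopressin-regulated water channel, was at 683, 621, 241 and 763 CPM in knockout libraries and at 391, 291, 276 and 375 CPM in wildtype libraries. Knockout 3 was the lowest of all 8 libraries and the other knockout libraries the 3 highest (log2 difference 0.79, SE 0.31, edgeR adjusted p = 0.957). Aqp3, on the basal side of the same cells, differed by 0.31 (SE 0.13). Hsd11b2, which shields the mineralocorticoid receptor, differed by 0.08 (SE 0.19).

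Positive differences were also common outside the lists behind the index, in both cortical and partly medullary lists. All 8 podocyte genes (median 0.27), 8 of 10 thick ascending limb genes (0.18) and all 10 vascular genes (0.22, 4 of them with groups that do not overlap) had positive values, against 51.3% of all genes with a positive difference and 1.03% whose groups do not overlap with knockout the higher. By contrast, proximal convoluted tubule genes were split 5 to 5 (0.05). Of the proximal straight tubule, which lies in the outer stripe of the outer medulla, 5 of 6 genes were negative (-0.19). Slc7a13, an amino acid carrier of the straight tubule, had 1095 ± 241 CPM in knockout and 1588 ± 175 CPM in wildtype libraries (SD, n = 4 each). The 9 urea and osmolyte genes, with 6 of 9 positive and a median of 0.23, lay among these lists. In these 5 lists 0 genes passed edgeR's adjusted test, and 1 podocyte, 1 thick ascending limb, 4 vascular, 2 convoluted tubule and 1 straight tubule gene had an unadjusted p under 0.05 (4.00% of all genes). CPM values are shares of a library, so a higher share of some genes lowers that of others.

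**Figure D5:**
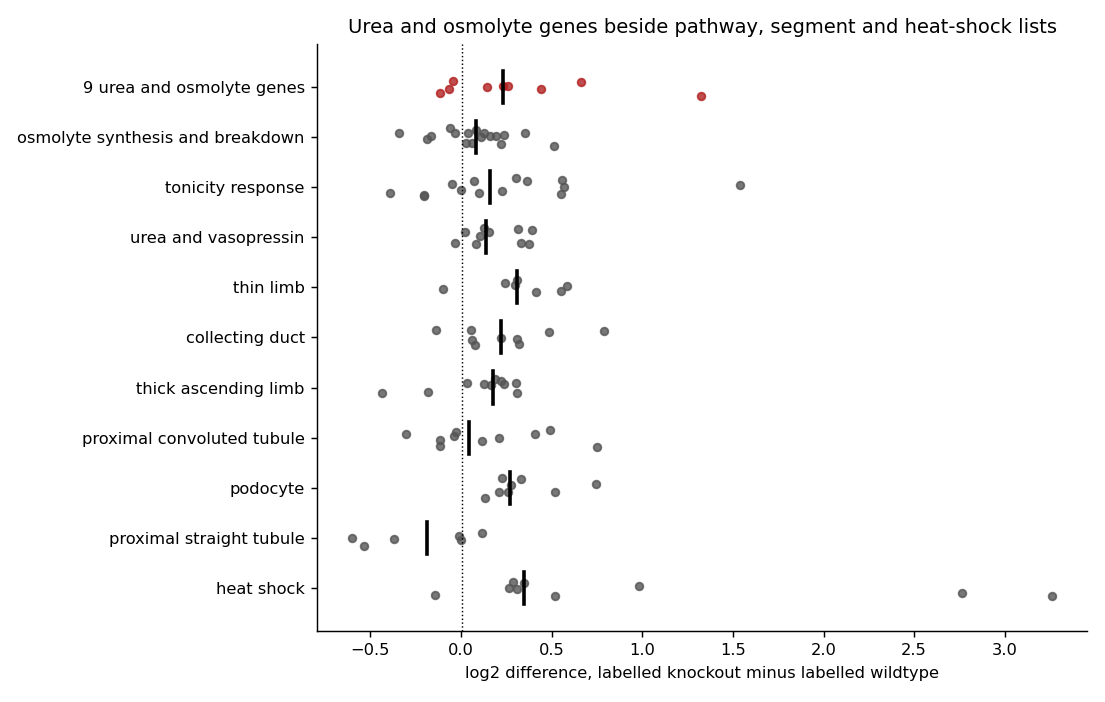
log2 differences, labelled knockout minus labelled wildtype (horizontal axis), of the 9 urea and osmolyte genes (red) and of the tested genes of 10 lists (grey), with the median of each as a black bar. The median of the 9 genes, 0.23, lies between those of the osmolyte synthesis list (0.08) and the thin limb list (0.31), and the heat-shock list holds 2 genes above 2.5.

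Transcripts of other tissues and cells were given by 5 further lists. Positive log2 differences (51.3% of all genes) held for all 6 tested erythroid (median 2.12), all 8 urothelial (0.36) and all 6 fat genes (0.38). They also held for 3 of 4 tested adrenal (0.05) and 2 of 2 tested muscle genes (0.37). In each of these lists 0 genes had an unadjusted p under 0.05 in edgeR (4.00% of all genes). Summed levels ran from 247 to 7816 CPM in knockout and 179 to 1376 CPM in wildtype libraries for 8 erythroid genes, and from 29.7 to 53.9 and 17.97 to 49.7 CPM for 8 urothelial genes. Urothelium lines the renal pelvis next to the papilla; its mean log2 CPM was 2.36, 2.43, 1.59 and 2.29 in knockout and 2.20, 0.94, 1.48 and 2.37 in wildtype libraries, lowest in wildtype 2 and then wildtype 3 and knockout 3. Wildtype 2 was also the lowest library for the index, Cryab, Slc6a12 and Slc14a1. The 5 adrenal genes summed to 5.64 to 911 CPM in knockout and 4.52 to 880 CPM in wildtype libraries, the 6 fat genes to 246 to 831 and 238 to 845 CPM, and the 8 muscle genes to 13.1 to 18.5 and 10.7 to 15.0 CPM, with the muscle genes Ckm and Myh4 at 3 counts or fewer in every library. The part of these tissues in the levels of the 9 genes was not tested.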

How the data were processed

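RNA from whole mouse kidney in 8 libraries was sequenced, 4 per label. The authors deposited raw read counts per Ensembl gene. STAR, HTSeq and edgeR and the mm9 build are named by the submitters' processing notes, without versions; the annotation is not stated. Counting did not use strand, per the names of the deposited tables. Lines that name no gene were left out (no feature 11.6% to 16.2%, ambiguous 2.05% to 2.31%, not unique 15.8% to 20.9%). Of 37583 identifiers, 32860 matched a GENCODE M21 symbol, and no position was converted from mm9.

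Groups came from the titles. Genes were filtered (minimum count 10, total 15), TMM-scaled and tested with the two-sided quasi-likelihood test of edgeR 4.0.16 (R 4.3.3), adjusted by Benjamini-Hochberg over 14433 genes at 0.05; DESeq2 1.42.0 and limma-voom (3.58.1) were alternatives. Log2 CPM used a prior count of 2. Correlations used exact permutation. A count of 0 allows up to 0.223 CPM (3 counts, counting error only). No library was a copy of another (chi-square per gene 10.9 to 86.0 over 28 pairs). On counts simulated for this comparison (14296 genes tested, 200 changed), 58.6% of genes changed by 1 and 97.0% of those changed by 2 on the log2 scale were recovered, with 7 false calls. Simulated counts varied independently by gene, without shared shifts such as those of heat-shock, adrenal or globin transcripts. Recovery in the real libraries may therefore be lower. The replicate numbers were not used as pairs in the main fit, and the counts do not settle whether they pair the libraries.

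The members, lists and tests were chosen with earlier results of these data known. Named genes were the members, the targeted genes, up to 2 genes of lowest p and up to 2 of highest CPM per list, and 3 genes most like each member; others were chosen after their values were seen. A gene that this rule takes is not reported here. Fits with the index term but without the heat-shock or adrenal libraries, correlations of deviations from group means and those with heat-shock genes were added after seeing the data. Close copies were sought with blastn 2.17.0, and figures drawn with matplotlib 3.10.9.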

Additional observations from a re-analysis of the deposited data

Results flagged for a closer look

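Nfat5 in the libraries labelled wildtype had 1 value far from the others: wildtype 2 was at 106 CPM and the other 3 wildtype libraries were at 125 to 126 CPM, a gap that is 0.971 of the group's whole range, above the limit for 4 values. The knockout libraries spread from 93.9 to 130.1 CPM, on both sides of that value. Chance flags about 1 in 20 groups, and both groups of all 9 genes were looked at.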

How the results depend on the processing

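No member passed the adjusted test in any of 16 other settings (other normalizations, no filter, DESeq2, limma-voom, a replicate block, and libraries left out), nor with the medulla index as a term, nor did any correlation with the index; members at an unadjusted p under 0.05 numbered 1 to 3. Cryab, Slc6a12, Slc5a3, Slc14a2 and Slc6a6 stayed positive and Nfat5 negative in all 16 settings without the index. The others changed sign in some; the cause was not tested. Without knockout 2 and 4, Slc14a1 was at -0.17, and without knockout 2 and wildtype 1, Akr1b3 was at 0.048. Leaving out 1 library at a time gave -0.0014 to 0.27 for Slc14a1, -0.17 to 0.049 for Akr1b3 and -0.21 to 0.079 for Slc4a11. With the index as a term, leaving out 1 library gave -0.27 to 0.019 for Slc14a1, -0.22 to 0.19 for Akr1b3, -0.10 to 0.72 for Slc14a2 and -0.13 to 1.45 for Slc6a12. In that fit Slc6a12 was at -0.10 without knockout 2 and 4, and, without knockout 2 and wildtype 1, at -0.12, with Slc14a2 at -0.11. With the medulla-minus-cortex index as the term, Slc14a1 was at 0.13 and Akr1b3 at -0.054. The replicate block gave 0.66 for Cryab and 1.16 for Slc6a12, with 0 members called, and, with the index as a term, -0.011 for Slc5a3. Same-numbered libraries had deviations from their group means correlated at 0.226, -0.230, 0.282 and 0.293. The closest wildtype library by this measure had the same number for knockout 1 and 4, and another for knockout 2 and 3. These values do not settle whether the numbers pair the libraries. With the replicate block, 1075 genes had an unadjusted p under 0.05 in edgeR, against 578 in the full fit. The smallest adjusted p of any gene was 0.145 with the block and 0.957 in the full fit. Over all genes, DESeq2 called 4, and edgeR's full fit called 0. edgeR called 1 gene without knockout 2 and 4, 1 without knockout 3, 1 without knockout 4 and 2 without wildtype 1. Genes at an unadjusted p under 0.05 ran from 343 of 14621 without wildtype 2 to 1252 of 14678 without knockout 3. The index difference ran from 0.17 to 0.38 with 1 library left out. Slc6a12, with the lowest CPM, rests on the smallest counts.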
